A study of Homo sapiens with 16 samples.

Results

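The Sm core protein genes encode the subunits of the protein ring that sits on the spliceosomal small nuclear RNAs (snRNAs). The set held 8 genes, taken by symbol among the 58302 gene identifiers counted: SNRPB, SNRPD1, SNRPD2, SNRPD3, SNRPE, SNRPF, SNRPG and SNRPN. All 8 were found by their Ensembl identifiers, and 7 of them had enough reads to be tested, since SNRPN held almost none. The libraries came from HEK293, an established line derived from human embryonic kidney. In the siRNAG5 groups the cells received an siRNA against Gemin5 at 100 nM with a lipid carrier, and in the Ctrl groups Gemin5 was not targeted. By the methods of the study Ctrl cells received a control siRNA, but their treatment label reads untreated. RNA was sequenced from cytoplasmic lysates (Input) and from the combined polysomal fractions of sucrose gradients (Polysome), which gave 4 groups with 4 libraries each: Input Ctrl, Input siRNAG5, Polysome Ctrl and Polysome siRNAG5. A single siRNA sequence in a single cell line stands for Gemin5 depletion throughout.

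Each spliceosomal snRNP of the Sm class carries an Sm ring around a uridine-rich site of its snRNA. Newly made Sm proteins are held by the methylosome, where pICln (CLNS1A) chaperones them and PRMT5 with WDR77 methylates arginines in the tails of SmB, SmD1 and SmD3. The SMN complex then loads the ring onto the snRNA in the cytoplasm, and Gemin5 is the member of that complex that recognizes the snRNA. The snRNA cap is afterwards hypermethylated and the particle is imported into the nucleus. Gemin5 also binds ribosomes and mRNAs, and the study asked which mRNAs depend on it for their association with polysomes. The Sm proteins come together as the pairs SmB with SmD3 and SmD1 with SmD2, and as the group SmE, SmF and SmG, and the genes are described in that order below.

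The silencing reagent is shown because every siRNAG5 value rests on it. Capitals mark the 19 bases that occur in an annotated transcript and the lower-case letters the overhang.
siRNAG5: CCUUAAUCAAGAAGAGAAAuu
Those 19 bases were found in the sense direction in transcripts of 1 gene of the GENCODE annotation, GEMIN5, at chr5:154904608-154904626 (GRCh38, minus strand), within the coding part of exon 18 of 28 of the canonical transcript. GEMIN5 was at 15.9, 18.9, 16.006 and 20.7 CPM (reads of a gene scaled to a common library size) in Input Ctrl and at 7.46, 6.51, 6.22 and 6.68 CPM in Input siRNAG5. In Polysome it was at 5.50, 7.21, 7.76 and 9.28 CPM in Ctrl and at 2.10, 3.08, 3.05 and 2.35 CPM in siRNAG5. The libraries of siRNAG5 lay below those of Ctrl in both fractions. GEMIN5 fell by 1.40 ± 0.12 (SE) on the log2 scale in Input (edgeR, adjusted p = 3.11e-10) and by 1.44 ± 0.21 in Polysome (edgeR, adjusted p = 0.00477), so the labels held for the targeted gene.

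Libraries held 11145324 to 24511299 reads on genes, and each of the 7 tested members held 6168 to 26738 reads in every library, so counting error was small beside the spread between libraries. Reads that aligned to several places made up 4.88 to 6.04% of a library in Input and 21.2 to 42.4% in Polysome, with the highest share in Polysome siRNAG5 replicate 1. Of 9 markers of HEK293 cells all 9 had reads in every group, with a summed level of 559 to 1707 CPM. Markers of liver, which these cells should lack, moved with the groups. Their summed level was 68.3 to 142 CPM in Polysome Ctrl and 0.330 to 0.738 CPM in Polysome siRNAG5, with reads on 10 and 5 of 10 markers. In Input it was 128 and 111 CPM in Ctrl replicates 3 and 4, 2.39 and 0.973 CPM in Ctrl replicates 1 and 2, and 1.05 to 1.13 CPM in siRNAG5. Markers of blood summed to 4.58 to 5.98 CPM in Polysome Ctrl and to at most 1.52 CPM in the other groups, and markers of brain to 4.53 to 12.7 CPM in all. The part of these reads in the Polysome results was not tested, and in Polysome they cannot be told apart from the Ctrl label. The labels name no batch.

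The study is concerned with mRNAs that begin with a 5' terminal oligopyrimidine tract (5'TOP), a C at the cap followed by a run of C or T letters that places translation under common control. The first bases of the 7 tested genes are therefore shown. Each window holds 10 bases before the annotated start of the canonical transcript in lower case and the first 20 transcribed bases in capitals, read from the GRCh38 genome with GENCODE starts.
SNRPB (chr20:2470770-2470799, minus strand): acgtggtgctGCATTTCCGGTAGCGGCGGC
SNRPD3 (chr22:24555989-24556018, plus strand): taggcccgccATTCGCTTGACTCACGCCTT
SNRPD1 (chr18:21612304-21612333, plus strand): tccgcgcgctCTTGACGTCCGGAGCCCCTG
SNRPD2 (chr19:45691934-45691963, minus strand): gaagtcccgcCTCTCTCTCCTCAGGCAGCA
SNRPE (chr1:203861589-203861618, plus strand): gcttccggttCTTTATTCCGGAAGTTGCTC
SNRPF (chr12:95858942-95858971, plus strand): ggtcatagtcCTGTTTGGCGGCCATTTCTC
SNRPG (chr2:70293721-70293750, minus strand): ggtcgatgacGCCAGACGCAAGACGCCGGG
A start was counted as TOP-like when its first transcribed letter was C and at least 4 letters, each C or T, followed on the transcribed strand. SNRPD2, with 12 such letters from its start, met this, and SNRPE, with 4, fell short by a single letter. SNRPD1 began with 3 and SNRPF with 2, while SNRPB, SNRPD3 and SNRPG began with a purine. Among 19708 protein-coding genes with an annotated start 4.63% met the rule, and 5.52% of the 12263 that were tested in Polysome. Annotated starts can lie some bases from the start used in these cells, so a miss says only that these letters are not at the annotated position.

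How much of each mRNA the cells held is comparable between genes only per length. Per kilobase of all annotated exons, Input Ctrl held SNRPD2 at 1095 ± 51.0 CPM (SD, n = 4), the highest of the 7, and SNRPD1 at 140.1 ± 10.3, the lowest. In between came SNRPE at 484 ± 31.5, SNRPG at 367 ± 24.2, SNRPF at 322 ± 25.3, SNRPD3 at 279 ± 17.1 and SNRPB at 259.7 ± 14.8 CPM per kilobase. The ranges of SNRPG and SNRPF, of SNRPF and SNRPD3, and of SNRPD3 and SNRPB overlapped over the 4 libraries, so these neighbours were not set apart. The length used decides much of this order. Per kilobase of the canonical transcript SNRPD2 stood at 3063 ± 143 and SNRPD1 at 140.2 ± 10.3, still at the ends, but after SNRPD2 came SNRPF at 1721 ± 135, SNRPB at 1237 ± 70.5 and SNRPG at 1089 ± 71.9, ahead of SNRPE at 645 ± 42.0 and SNRPD3 at 316 ± 19.3, with no neighbours overlapping. SNRPD1 has a canonical transcript of 4858 bases for 119 codons, against 515 bases and 118 codons for SNRPD2, so that most of the SNRPD1 transcript lies outside the coding part. All annotated exons of SNRPD1 together hold 4862 bases, so the other length could hardly move its value. Whether these cells use that long transcript was not tested.

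In cytoplasmic RNA every tested member was lower in siRNAG5, and no library of siRNAG5 reached any library of Ctrl. The log2 fold changes ran from -0.27 for SNRPD2 to -0.55 for SNRPG, with a median of -0.44, against a median of 0.04 over all 14134 genes tested. All 7 of 7 passed at an adjusted p under 0.05 (edgeR's quasi-likelihood test, adjusted p from 7.19e-08 to 4.95e-04), where 19.1% of all genes passed in the lower direction. Groups that did not overlap, with siRNAG5 lower, were found for 7 of 7 members and for 19.1% of all genes. Only SNRPG also went beyond 0.5 on the log2 scale, the size the study required, where 6.02% of all genes did so. The summed level of the 7 mRNAs was 7121 ± 373 CPM (SD, n = 4) in Input Ctrl and 5346 ± 243 CPM in Input siRNAG5. In bulk RNA a lower level per cell and fewer cells that hold the mRNA cannot be told apart.

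SNRPB (ENSG00000125835, chr20:2461634-2470853, minus strand) encodes SmB and SmB', the tailed Sm proteins made from this gene by alternative splicing. In Input it was at 1254, 1437, 1314 and 1349 CPM in Ctrl and at 1007, 937, 1038 and 929 CPM in siRNAG5. The highest siRNAG5 library thus lay below the lowest Ctrl library. SNRPB fell by 0.44 ± 0.06 (SE) on the log2 scale (edgeR, adjusted p = 1.46e-06), a change of -26.3%.

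SNRPD3 (ENSG00000100028, chr22:24555958-24582052, plus strand) encodes SmD3, the partner of SmB in the ring. Its Input levels were 1086, 1184, 1082 and 1022 CPM in Ctrl and 710.3, 783, 861 and 799 CPM in siRNAG5, again without overlap. It fell by 0.46 ± 0.07 (edgeR, adjusted p = 1.81e-06), a change of -27.3%, close to that of its partner.

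SNRPD1 (ENSG00000167088, chr18:21612314-21633524, plus strand) encodes SmD1, and SNRPD2 (ENSG00000125743, chr19:45687460-45692569, minus strand) encodes SmD2, with which it pairs. SNRPD1 was at 703, 729.7, 679 and 613 CPM in Input Ctrl and at 499, 567, 574 and 537 CPM in Input siRNAG5, and fell by 0.31 ± 0.06 (edgeR, adjusted p = 3.36e-04). SNRPD2 was at 1553, 1658, 1611 and 1488 CPM in Ctrl and at 1339.6, 1291, 1332 and 1207 CPM in siRNAG5, and fell by 0.27 ± 0.06 (edgeR, adjusted p = 4.95e-04). This pair held the smallest changes of the 7, -19.4% and -17.3%, and SNRPD2, the member with a TOP-like start, was the least changed. The 95% intervals of SNRPD2 (-0.40 to -0.15) and SNRPG (-0.68 to -0.42) did not overlap; whether members differed from each other was not tested.

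SNRPE (ENSG00000182004, chr1:203861599-203871152, plus strand), SNRPF (ENSG00000139343, chr12:95858952-95903828, plus strand) and SNRPG (ENSG00000143977, chr2:70281362-70293740, minus strand) encode the small tail-less subunits SmE, SmF and SmG. SNRPE was at 1059, 1060.1, 979 and 926 CPM in Input Ctrl and at 619, 813, 816 and 778 CPM in Input siRNAG5, where replicate 1 was the lowest, and fell by 0.40 ± 0.07 (edgeR, adjusted p = 7.14e-05). SNRPF was at 797, 846, 769.6 and 699 CPM in Ctrl and at 520.3, 545, 583 and 541 CPM in siRNAG5, and fell by 0.49 ± 0.06 (edgeR, adjusted p = 4.76e-07). SNRPG was at 669, 679, 654 and 585 CPM in Ctrl and at 411, 441, 467 and 438 CPM in siRNAG5, and fell by 0.55 ± 0.06 (edgeR, adjusted p = 7.19e-08), a change of -31.5% and the largest of the set. The plot of CPM by library shows these separations beside the wider spread in Polysome.

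**Figure D1:**
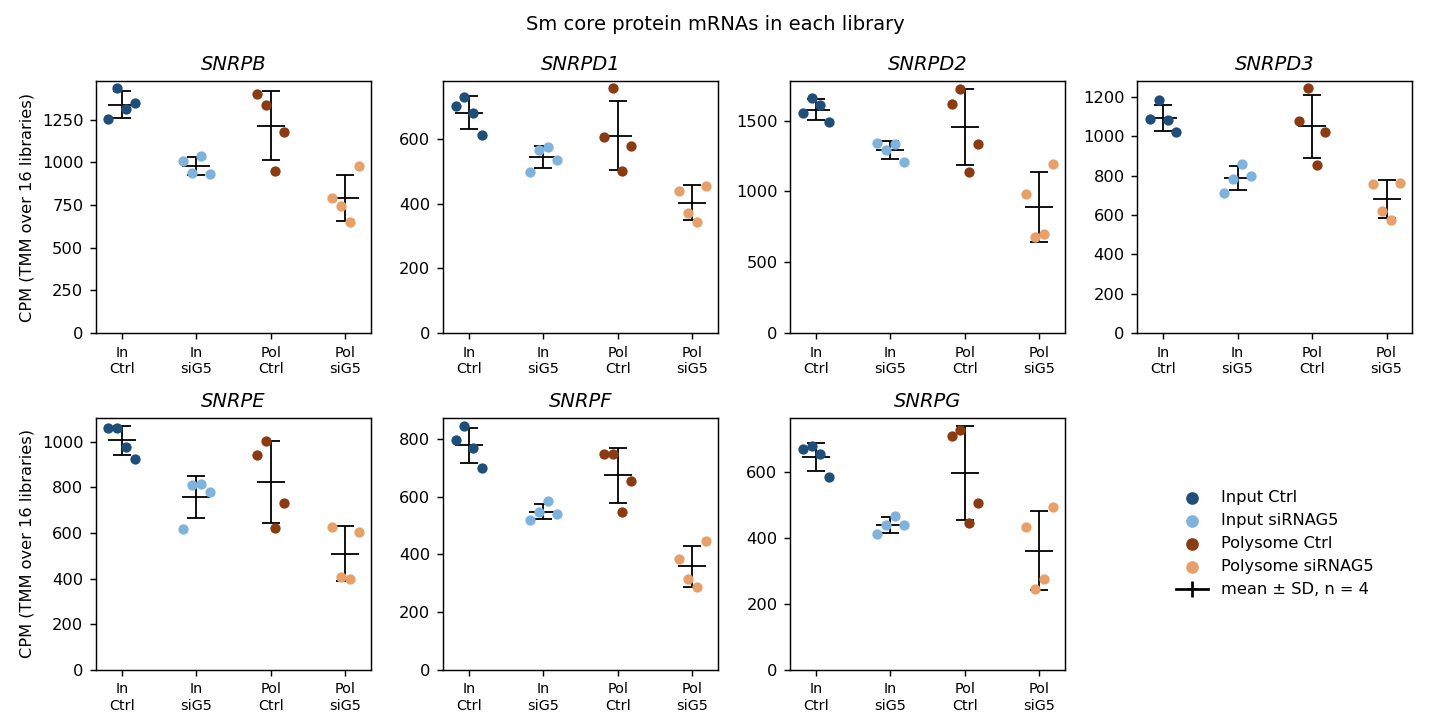
Level of the 7 measured Sm core protein mRNAs in each of the 16 libraries, in CPM after TMM scaling (linear axis from 0); In is Input, Pol is Polysome and siG5 is siRNAG5, points are libraries from replicate 1 at the left to replicate 4 at the right, and bars give the mean ± SD (n = 4). In Input the siRNAG5 points lie below all Ctrl points for every gene, while in Polysome the 4 points of a group spread more and meet those of the other group for SNRPB, SNRPD2, SNRPE and SNRPG.

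The Input result held when the libraries with liver reads were set aside. With Input Ctrl replicates 3 and 4 left out, an alternative chosen after the data had been seen, 7 of 7 still passed, with log2 fold changes from -0.31 for SNRPD2 to -0.61 for SNRPG, and 3 of them went beyond 0.5. Fewer members passed when the spread was estimated over both fractions at once, although the log2 fold changes of SNRPD1 (-0.32), SNRPD2 (-0.29), SNRPE (-0.41) and SNRPG (-0.56) were as large. One fit of the 16 libraries left 3 of 7, SNRPB, SNRPD3 and SNRPF, where 8.58% of all genes passed as lower, with adjusted p values of 0.105, 0.272, 0.113 and 0.0558 for SNRPD1, SNRPD2, SNRPE and SNRPG (edgeR).

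In polysomal RNA the 7 members were also below Ctrl on average, by more than in Input, but their libraries scattered more and only SNRPF passed the test. The log2 fold changes ran from -0.56 to -0.87 with a median of -0.66, against 0.03 over all 14420 genes tested. Thus 1 of 7 passed at an adjusted p under 0.05, and also went beyond 0.5, where 4.09% and 4.0% of all genes did so in the lower direction. At an unadjusted p under 0.05 it was 7 of 7, against 13.3% of all genes, and the adjusted p values of the other 6 lay between 0.0667 and 0.112. The study had picked SNRPB, SNRPD1, SNRPD2, SNRPD3 and SNRPE for being lower in Polysome in these same samples and not significantly altered in Input. Their direction in Polysome is therefore not independent evidence. Here they also passed as lower in Input, from -0.27 for SNRPD2 to -0.46 for SNRPD3, each within the study's bound of 0.5. The paper does not name SNRPF or SNRPG in that group, and does not say whether this was for their Polysome or Input values. With DESeq2, the tool of the study, 2 members passed beyond 0.5 in Input here, SNRPF and SNRPG. Whether this set them apart in the study was not tested. Groups that did not overlap, siRNAG5 lower, were found for SNRPD1, SNRPD3 and SNRPF, 3 of 7, against 10.0% of all genes. The summed level was 6424 ± 1120.4 CPM (SD, n = 4) in Polysome Ctrl and 3992 ± 820.2 CPM in Polysome siRNAG5.

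SNRPF was at 747, 747, 546 and 655 CPM in Polysome Ctrl and at 385, 313, 288 and 445 CPM in Polysome siRNAG5, so its groups stood clear of each other. It fell by 0.87 ± 0.19 on the log2 scale (edgeR, adjusted p = 0.0204), a change of -45.5%. The call did not hold with each library left out, although the log2 fold change of SNRPF stayed between -0.77 and -0.99 in the 8 fits with 7 libraries: the adjusted p was 0.0757 without Polysome Ctrl replicate 2, and 0.0503, 0.0562 and 0.0568 without Polysome siRNAG5 replicates 1, 2 and 3.

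For SNRPB the Polysome levels were 1398, 1334, 947 and 1179.9 CPM in Ctrl and 791, 744, 653 and 977 CPM in siRNAG5. Ctrl replicate 3 and siRNAG5 replicate 4 met, and the log2 fold change was -0.58 ± 0.20 (edgeR, adjusted p = 0.0845). Its partner SNRPD3 was at 1076, 1247, 856 and 1021 CPM in Ctrl and at 759, 622, 575 and 763 CPM in siRNAG5, without overlap, with a log2 fold change of -0.59 ± 0.18 (edgeR, adjusted p = 0.0667).

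For SNRPD1 the Polysome levels were 605, 758, 499.9 and 579.6 CPM in Ctrl and 441, 373, 343 and 455 CPM in siRNAG5, without overlap, and the log2 fold change was -0.56 ± 0.18 (edgeR, adjusted p = 0.0713). SNRPD2 was at 1617, 1726, 1134 and 1336 CPM in Ctrl and at 980.4, 676, 702 and 1196 CPM in siRNAG5. Here siRNAG5 replicate 4 exceeded Ctrl replicate 3, and the log2 fold change was -0.67 ± 0.23 (edgeR, adjusted p = 0.0885). SNRPD2, the least changed member in Input, was thus among the 3 with the lowest log2 fold change in Polysome, within an interval from -1.18 to -0.17.

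SNRPE was at 941, 1002, 621 and 731 CPM in Polysome Ctrl and at 625, 409, 399.7 and 606 CPM in Polysome siRNAG5, with a log2 fold change of -0.66 ± 0.22 (edgeR, adjusted p = 0.0867). SNRPG was at 709.6, 728, 446 and 506 CPM in Ctrl and at 435, 245, 274 and 494 CPM in siRNAG5, and had the widest spread, with a log2 fold change of -0.69 ± 0.26 (edgeR, adjusted p = 0.112). The members scattered together, as did many other genes: Polysome Ctrl replicates 1 and 2 stood above replicates 3 and 4, and siRNAG5 replicates 1 and 4 above replicates 2 and 3, for 7 of 7 members. Of all 14420 genes tested in Polysome 21.1% showed this order and 23.8% the opposite one, so the split is one of the libraries and not particular to the Sm genes. Over all genes the deviations from the group means correlated at 0.82 between Ctrl replicate 1 and siRNAG5 replicate 4, and at -0.79 between Ctrl replicate 1 and siRNAG5 replicate 2. The summed level of the 7 was 7095, 7543, 5049 and 6008 CPM in Polysome Ctrl and 4415, 3382, 3235 and 4937 CPM in Polysome siRNAG5. The share of reads that aligned to several places did not follow this order, at 27.6, 22.1, 21.2 and 32.8% in Ctrl and 42.4, 29.0, 26.3 and 26.6% in siRNAG5.

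The number of members that passed in Polysome differed between fits. With the same 8 libraries DESeq2, which the study used in an earlier version, passed 6 of 7, all but SNRPG. It passed 9.24% of all genes in the lower direction. With 1 surrogate variable, an unlabelled common axis estimated from the data and chosen after they had been seen, 7 of 7 passed with log2 fold changes from -0.52 to -0.82, against 19.1% of all genes. One fit of the 16 libraries passed 7 of 7, against 14.4% of all genes, and the fit without a filter on low counts passed SNRPE, SNRPF and SNRPG, 3 of 7, against 3.44% of its 27384 genes. Leaving out single libraries gave 0 of 7 without Polysome Ctrl replicate 2 or siRNAG5 replicates 1, 2 or 3, and 2 of 7, SNRPD2 and SNRPF, without siRNAG5 replicate 4. Offsets for transcript length and GC content gave 4 of 7, against 5.79% of all genes; SNRPD1, SNRPD3, SNRPE and SNRPG then passed, and SNRPF, at -0.49, did not (edgeR, adjusted p = 0.0856). The direction was the same in every one of these fits.

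**Figure D2:**
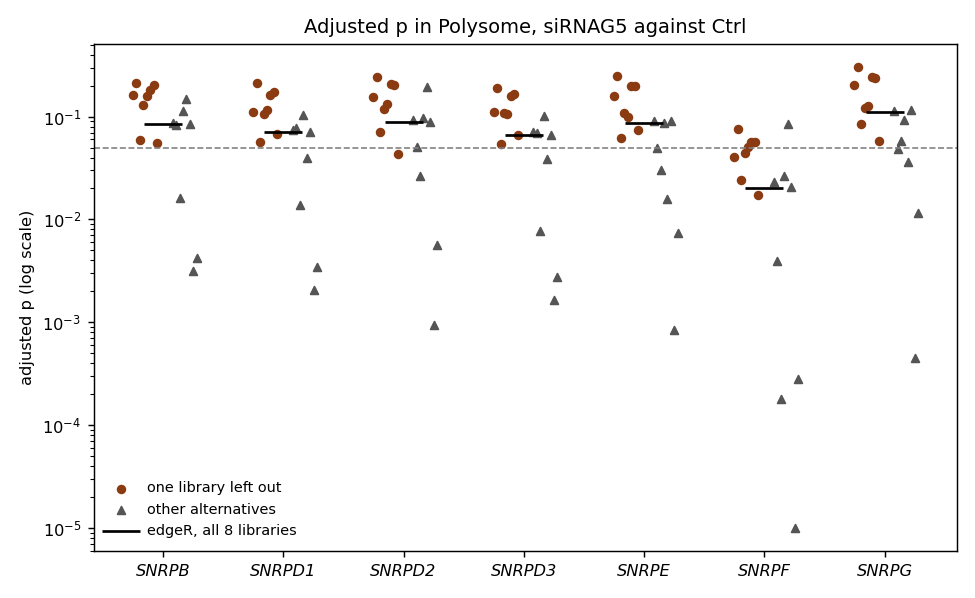
Adjusted p for siRNAG5 against Ctrl in Polysome (log scale) for the 7 Sm core protein mRNAs; black bars give the edgeR test on all 8 libraries, brown points the 8 fits that leave out a single library, grey triangles the other alternatives, and the dashed line 0.05. SNRPF alone has its bar below the line, at 0.0204, and single libraries carry it across, while the other members lie above the line and are carried below it by some alternatives.

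Whether siRNAG5 lowered the mRNAs more in Polysome than in Input was tested by subtracting its Input log2 fold change from its Polysome one. The difference was negative for 7 of 7 members, from -0.16 for SNRPD3 and SNRPG to -0.42 for SNRPD2 with a median of -0.28, where 59.0% of all genes were negative and the median was -0.06. None of the 7 passed in edgeR (adjusted p from 0.696 to 0.938), none at an unadjusted p under 0.05 and none in DESeq2. Among all 14958 genes edgeR passed 0, or 0.0%. An unadjusted p under 0.05 was met by 4.69% of them on the negative side and 2.59% on the positive side, and DESeq2 passed 11 and 19 of the 12348 genes with an adjusted p. SNRPF came nearest, at -0.41 with a 95% interval from -0.82 to 0.01 (edgeR, unadjusted p = 0.0540). For SNRPB the interval ran from -0.58 to 0.25 and for SNRPG from -0.74 to 0.41, so that neither an equal change in both fractions nor a Polysome change larger by 0.5 was set aside by these data. With the length and GC offsets the value of SNRPB was 0.03, on the other side of 0.

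**Figure D3:**
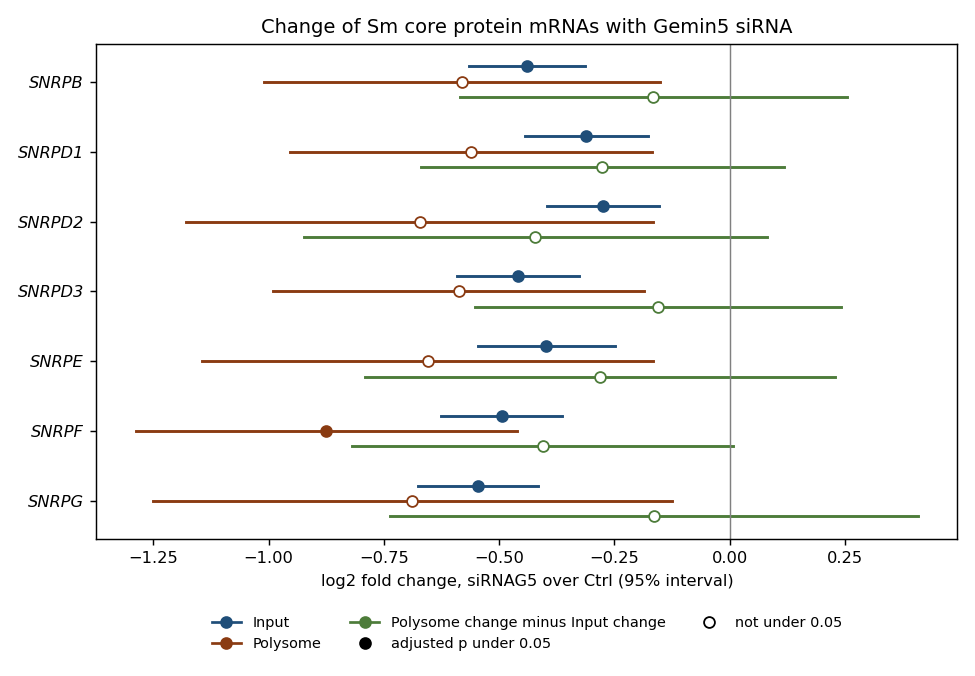
Log2 fold change of siRNAG5 over Ctrl for the 7 Sm core protein mRNAs in Input (blue) and Polysome (brown), and the Polysome value less the Input value (green), each with its 95% interval; filled points passed at an adjusted p under 0.05. The Input intervals are narrow and below 0, the Polysome intervals are wider and reach further down, and the intervals of the difference all take in 0.

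The level of each mRNA in Polysome was also compared with that in Input within each treatment. Libraries were scaled to a common size, so these values stand relative to other genes. They do not give the share of an mRNA that was in polysomes. In Ctrl the log2 differences of the 7 members, on this relative scale, ran from -0.29 for SNRPE to -0.06 for SNRPD3. Libraries overlapped for every member. None of the 7 passed in edgeR (adjusted p from 0.185 to 0.752), none at an unadjusted p under 0.05 and none in DESeq2. Among all genes edgeR passed 21.9% as lower and 22.8% as higher, an unadjusted p under 0.05 was met by 25.8% and 25.9%, and groups did not overlap for 22.1% and 19.9%. In siRNAG5 4 of 7 passed as lower in Polysome, against 31.1% of all genes: SNRPF at -0.61 ± 0.14 (edgeR, adjusted p = 0.00107), SNRPE at -0.57 ± 0.17 (adjusted p = 0.00888), SNRPD2 at -0.54 ± 0.17 (adjusted p = 0.0112) and SNRPD1 at -0.43 ± 0.13 (adjusted p = 0.00952). Of the 4, SNRPF, SNRPE and SNRPD2 went beyond 0.5, where 25.4% of all genes did. SNRPB at -0.31 ± 0.14, SNRPG at -0.28 ± 0.19 and SNRPD3 at -0.21 ± 0.13 did not pass (edgeR, adjusted p = 0.0737, 0.228 and 0.183). Libraries did not overlap for SNRPD1, SNRPD2 and SNRPF, 3 of 7, against 27.3% of all genes. The values in Ctrl and in siRNAG5 were not shown to differ, since the difference between them is the test just described, which no member passed. Without Polysome siRNAG5 replicate 2, or without replicate 3, SNRPF was the only member that passed.

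Some of these signs turned under another scaling. Its offsets remove from each library what follows transcript length and GC content over all genes. A difference between the fractions that follows length or GC is then removed as well. Each member is thus set against genes whose canonical transcripts are alike in length and GC. Whether the canonical transcript is the form these cells use was not tested, and the values rest on it. With offsets for canonical transcript length and GC content SNRPB, SNRPD2, SNRPF and SNRPG, whose canonical transcripts have 1082, 515, 452 and 594 bases, turned to higher in Polysome, by 0.31, 0.49, 0.45 and 0.42 in Ctrl and by 0.34, 0.31, 0.24 and 0.29 in siRNAG5. All 4 passed as higher in Ctrl, against 27.8% of all genes, and SNRPD1 passed as lower at -0.41, against 19.8%. In siRNAG5 SNRPB, SNRPD2 and SNRPG, 3 of 7, passed as higher, against 29.5%, and SNRPD1, SNRPD3 and SNRPE as lower, against 26.3%. The long transcripts SNRPD1, SNRPD3 and SNRPE, of 4858, 3466 and 1560 bases, stayed below 0 in both treatments, at -0.81, -0.33 and -0.39 in siRNAG5. For SNRPB, SNRPD2, SNRPF and SNRPG no direction between Polysome and Input can therefore be given that holds under both scalings.

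**Figure D4:**
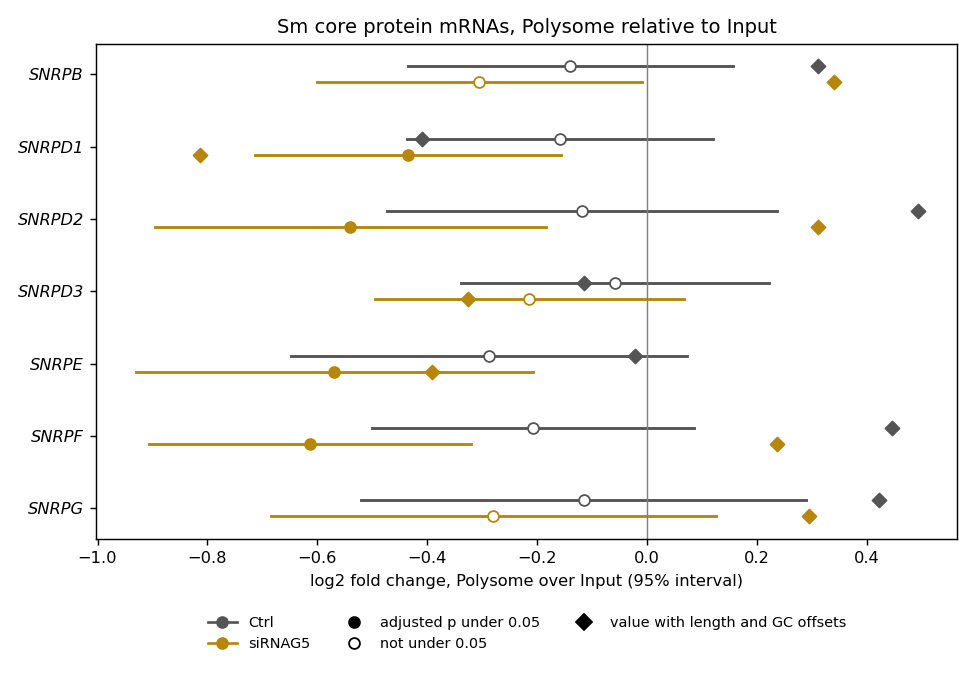
Log2 level in Polysome over Input for the 7 Sm core protein mRNAs in Ctrl (grey) and siRNAG5 (gold), with 95% intervals; filled circles passed at an adjusted p under 0.05, and diamonds give the value once length and GC offsets were applied. All circles lie below 0, further in siRNAG5 than in Ctrl, while the diamonds of SNRPB, SNRPD2, SNRPF and SNRPG lie above 0 in both treatments.

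SNRPN (ENSG00000128739, chr15:24823637-24978723, plus strand) encodes SmN, a close relative of SmB made from an imprinted locus and best known from brain. It held 3 reads in all 16 libraries, in 2 of them, and was at 0 in the other 14. In a single library a count of 0 allows up to 3 reads, which is 0.122 to 0.269 CPM over the range of depths. This is no measure of the mRNA, because 78.1% of the exon bases of its canonical transcript are shared on the same strand with other annotated genes, SNURF among them, and the counting set reads on more than 1 gene apart (4.14 to 7.41% of a library). SNURF itself was listed at 0 reads. By the same measure 14.0% of the SNRPB canonical exon bases are shared with another annotated gene, which was listed at 0, and 15.8% of those of SNRPD3 with a gene of the later annotation that the count files do not list. The other 5 members share none.

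Processed pseudogenes, copies of the spliced mRNA, can also draw reads from a member. SNRPG has 20 annotated pseudogenes, 9 of them with reads, which together held 17.1% as many reads as SNRPG. For SNRPE the figure was 1.32% over 10 pseudogenes, for SNRPF 0.285% over 4 and for SNRPD2 0.0512% over 2. The SNRPB pseudogene held none, and SNRPD1 and SNRPD3 have no pseudogene by symbol. With these reads added to their parent gene SNRPG stood at -0.56 in Input and -0.69 in Polysome, and the number of members that passed was the same in every comparison. The level of SNRPG is less certain than the others for this reason.

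Genes that act with the Sm proteins or are related to them were described from lists by role. Their counts stand against the 19.1% of all genes that passed as lower in Input, and in Polysome against 4.09%, or 13.3% at an unadjusted p under 0.05. In the methylosome 5 of 6 genes passed as lower in Input and none as higher, with a median of -0.37. WDR77, the PRMT5 partner that presents Sm proteins to the enzyme, fell by 1.10 ± 0.08 (edgeR, adjusted p = 2.07e-11), COPRS, a PRMT5 cofactor, by 0.56 ± 0.07 and RIOK1, a PRMT5 adaptor, by 0.43 ± 0.08. PRMT5 itself fell by 0.27 ± 0.07 (edgeR, adjusted p = 0.00147), and CLNS1A, at 0.05 ± 0.06, did not pass (edgeR, adjusted p = 0.535). In Polysome WDR77 fell by 1.10 and COPRS by 0.88 (edgeR, adjusted p = 0.00638 and 0.0450), the 2 of 6 that passed. PRMT5 and CLNS1A were at -0.26 and -0.16 there (edgeR, adjusted p = 0.411 and 0.487). All 6 were below 0 there, and 3 were lower at an unadjusted p under 0.05. In the SMN complex 4 of 10 passed as lower in Input: the targeted GEMIN5, GEMIN6 by 0.95 ± 0.08, GEMIN7 by 0.40, and 1 more by less. GEMIN5 and GEMIN6, at -0.99 (edgeR, adjusted p = 0.0134), were the 2 of 10 that passed as lower in Polysome. Of the 10 genes 9 were below 0 there, and 3 were lower at an unadjusted p under 0.05. GEMIN7, among these 3, stood at -0.64 (edgeR, adjusted p = 0.0732). SMN1 and SMN2 are near-identical copies, so their reads cannot be assigned with certainty.

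Of 10 genes of snRNA export, cap, import and maturation 5 passed as lower in Input and 1 as higher. Over all genes 19.1% passed as lower. TOE1, which trims snRNA ends, fell by 0.55, SNUPN, the import adaptor for the hypermethylated cap, by 0.47 and PHAX, the snRNA export adaptor, by 0.37, while TGS1, the enzyme that hypermethylates the cap, rose by 0.44 (edgeR, adjusted p = 0.00704), where 17.9% of all genes passed as higher. In Polysome TOE1 alone passed as lower, by 0.56 (edgeR, adjusted p = 0.0452). Of the 10 genes 8 were below 0 there, and 3 were lower at an unadjusted p under 0.05, against 13.3% of all genes. Among the 5 proteins specific to the U1 and U2 particles 4 fell and 1 rose in Input: SNRPB2 of U2 fell by 0.61, SNRPC of U1 by 0.46 and SNRPA1 of U2 by 0.34, and SNRPA of U1 rose by 0.25 (edgeR, adjusted p = 0.00384). None of the 5 passed in Polysome in edgeR, with 3 lower at an unadjusted p under 0.05, against 13.3% of all genes, and DESeq2 passed those 3, SNRPB2, SNRPC and SNRPA1, where it passed 9.24% of all genes. The Sm-like (LSM) proteins are relatives of the Sm proteins, and most of them form rings of their own on other RNAs. Of 10 of them 7 passed as lower in Input, against 19.1% of all genes. LSM3 at -0.67, LSM10 at -0.55 and LSM1 at -0.43 led them. None of the 10 passed in Polysome in edgeR. There 5 were lower at an unadjusted p under 0.05, against 13.3% of all genes, with LSM11 at 0.42 on the other side. DESeq2 passed 3 of the 10 as lower, LSM3, LSM6 and LSM7.

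**Figure D5:**
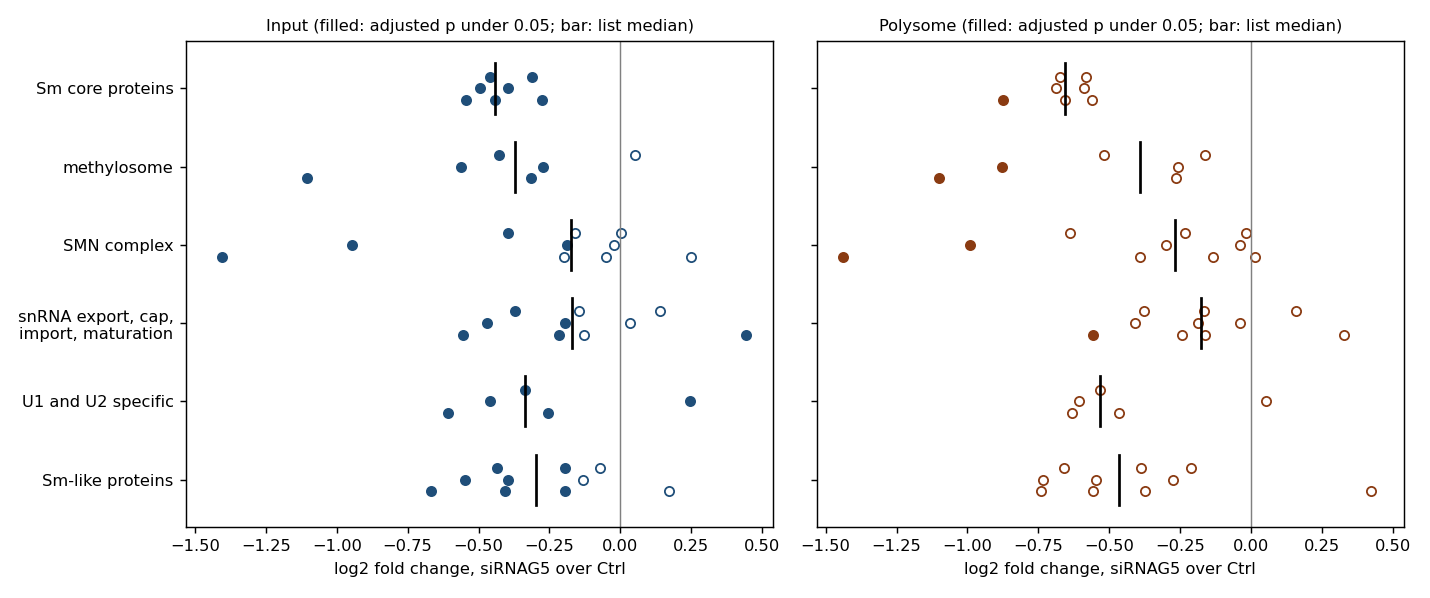
Log2 fold change of siRNAG5 over Ctrl in Input (blue, left) and Polysome (brown, right) for the Sm core proteins and 5 lists of genes that act with them or are related to them. Each point is a gene, filled where the adjusted p was under 0.05, and black bars are list medians. The Sm genes lie close together below 0 in both panels, with medians of -0.44 and -0.66, while the other lists span wider ranges.

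The Sm core list differed from the other lists in how close its members stayed to each other. Its log2 fold changes in Input spanned -0.55 to -0.27 and all were below 0, against -1.40 to 0.25 in the SMN complex, -1.10 to 0.05 in the methylosome and -0.67 to 0.17 among the Sm-like proteins. This is a description of 7 genes, and no test was made between lists.

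Across the 16 libraries the 7 members followed each other closely, with Pearson's r of log2 CPM between 0.89 and 0.97 over 21 pairs (median 0.94). The libraries share their group means, so the correlation was also taken after subtracting them: it was 0.72 to 0.96 (median 0.89), from -0.16 to 0.96 (median 0.64) in Input alone and from 0.82 to 0.99 (median 0.91) in Polysome alone. The common movement within groups thus lay mostly in the Polysome libraries. Pairs of other genes were not correlated for comparison, so this closeness is not shown to be particular to the Sm genes. The genes whose log2 CPM was most like the mean of the 7 members over the 16 libraries were ELOC (r = 0.992), NDUFB3 (r = 0.991), SOD1 (r = 0.990), NDUFA6 (r = 0.989) and COPRS (r = 0.989). After subtracting the group means they were RBX1 (r = 0.993), SEM1 (r = 0.990), COMMD1 (r = 0.989), ATP5PF (r = 0.987) and PRDX4 (r = 0.987). The first 5 were chosen on values that include the group means, so a lower level in siRNAG5 was built into that choice. Of the 10 genes COMMD1 alone did not pass in Input, at 0.02 ± 0.07, where 19.1% of all genes passed as lower. Only ELOC and COPRS passed in Polysome, at -0.74 and -0.88 (edgeR, adjusted p = 0.0428 and 0.0450), where 4.09% of all genes passed as lower. ELOC was at -0.50 in Input.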

How the data were processed

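Poly(A) RNA of the 16 libraries was made into stranded libraries by the authors, aligned to GRCh38 with STAR 2.5.3a per the labels, and counted per gene with QoRTs. The deposited values are whole-number read counts per gene, not normalized, in 1 column per library. Reads listed apart from genes were left out of library sizes. The study describes the 4 libraries of a group as independent biological samples.

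In R 4.3.3 the counts were scaled by TMM factors and tested by the quasi-likelihood test of edgeR 4.0.16 after filterByExpr, with Benjamini-Hochberg adjustment over all genes tested. Input and Polysome were fitted alone with 8 libraries each. The difference between fractions and Polysome against Input came from one fit of the 16 libraries, which left out the pairing of the fractions by lysate. A gene passed at an adjusted p under 0.05, and 0.5 on the log2 scale was the study's bound. The printed CPM use TMM over the 16 libraries, so that ratios of means differ slightly from fitted fold changes. Log2 CPM used a prior count of 2. Alternatives were DESeq2 1.42.0, other factors and filters, offsets, added pseudogene reads, 1 surrogate variable (sva 3.50.0) and leave-one-out fits. Coordinates, names (57532 of 58302 identifiers) and lengths are from GENCODE v44 on GRCh38, a later release of that build. The fits were tested on simulated data. Figures were drawn with matplotlib 3.10.9 in Python 3.11.15, from summaries made with pandas 2.3.3 and numpy 2.4.6.

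The members, lists and tests were chosen with earlier results of these data known. Named genes of a list were the up to 3 with the largest changes in each direction among those that passed. PRMT5 and CLNS1A were given as well, since the background names them. The 95% intervals are those of the edgeR fits and take in the spread between libraries, while the floor for a count of 0 covers counting error only.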

Additional observations from a re-analysis of the deposited data

How the results depend on the processing

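In Input 7 of 7 members passed under every alternative but one fit of the 16 libraries (3), and in each of the 8 leave-one-out fits (7 to 7). The number beyond 0.5 was 1, and became 2 with RLE factors, 2 with DESeq2, 0 with length and GC offsets, 3 without Input Ctrl replicates 3 and 4, and 1 to 3 in leave-one-out fits. In Polysome the 1 that passed became 3 without a filter, 6 with DESeq2, 4 with the offsets (3 beyond 0.5), 7 with 1 surrogate variable, 7 in one fit of the 16 libraries, 7 at an unadjusted p, and 0 to 2 in leave-one-out fits. For Polysome against Input in Ctrl the offsets moved 0 lower and 0 higher to 1 lower and 4 higher: SNRPB 0.31, SNRPD2 0.49, SNRPF 0.45 and SNRPG 0.42. There the sign also turned with 1 surrogate variable (SNRPD2 0.0276, SNRPD3 0.0207, SNRPG 0.0707) and without Polysome Ctrl replicate 3, where leave-one-out fits spanned -0.150 to 0.0298 for SNRPD3 and -0.223 to 0.00376 for SNRPG. In siRNAG5 the offsets gave 3 higher (SNRPB 0.34, SNRPD2 0.31 and SNRPG 0.29, with SNRPF at 0.24), and leave-one-out fits 1 to 6 lower; beyond 0.5 there were 3, and 1 with the offsets, 1 with 1 surrogate variable, 1 with the libraries of siRNAG5 alone and 0 to 3 in leave-one-out fits. The difference between fractions passed for 0 members throughout, and its sign turned for SNRPB with the offsets (0.0302) and for SNRPG without Polysome siRNAG5 replicate 2, where leave-one-out fits spanned -0.351 to 0.00321. For the turned signs the cause was not tested.

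Per kilobase of canonical transcript the levels in Input Ctrl moved to 1237 CPM for SNRPB, 3063 for SNRPD2, 316 for SNRPD3, 645 for SNRPE, 1721 for SNRPF and 1089 for SNRPG. The replicate block left the count of members that passed at 7 in Input, 1 in Polysome, 0 for the difference, and 0 and 4 for Polysome against Input in Ctrl and siRNAG5. By the paper, Input and Polysome RNA were taken from the same individual lysates, so the fractions are paired within a treatment. Blocks of replicate number within each treatment also left the difference at 0 members, and Polysome against Input at 0 in Ctrl and 4 in siRNAG5. The values did not show that the replicate numbers pair the libraries. Deviations of libraries 1 to 4 with the same number correlated at 0.12, 0.38, -0.16 and 0.31 between Input and Polysome in Ctrl, at 0.16, 0.13, 0.01 and -0.29 in siRNAG5, at -0.25, -0.10, -0.02 and 0.02 between the treatments in Input, and at 0.70, -0.37, 0.72 and -0.80 in Polysome. The CV per member and group was 13.4 to 33.4% in Polysome and 4.66 to 12.3% in Input, with at least 6168 reads per member and library.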
